A study of Ambystoma mexicanum with 12 samples.

Results

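The effect of a miR-200a inhibitor on the injured axolotl spinal cord was measured 4 days post injury (4 dpi) by comparing gene expression between 3 libraries of inhibitor-treated cord and 3 libraries of control-treated cord. The table lists 15091 genes, and the comparison covers the 14764 genes with at least 0.5 TPM, a gene's share of all transcripts in a library on a scale with a fixed total, in at least 3 of the 12 libraries of the series. Animals of 2 to 3 cm received either the miR-200 inhibitor or a control inhibitor under pressure into the central canal, together with Fast Green dye, and a piece of cord was cut out straight afterwards. The injury site was collected 4 days later, and the tissue of 10 animals was pooled for each library. The 4 dpi control libraries are numbered 1, 5 and 6 and the 4 dpi inhibitor libraries 5, 6 and 7, and values are given in that order throughout. The remaining 6 libraries came from uninjured cord, 3 with the control inhibitor (numbered 1, 5 and S2) and 3 with the miR-200a inhibitor (numbered 5, 6 and 7). Injection and dye are described for the animals of the series as a whole. The collected tissue holds cells beyond those lining the canal. miR-200a itself was not measured in these libraries, so the degree of its inhibition is not known here.

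Axolotls regrow the spinal cord after injury. The cells lining the central canal, called ependymoglia, carry the stem cell factor SOX2 and the glial filament protein GFAP, divide after injury and give rise to new glia and neurons. MicroRNAs of the miR-200 family are small RNAs that pair with messenger RNAs and lower their stability or translation, and in mammals they are best known for repressing the ZEB transcription factors and so holding cells in an epithelial state. Brachyury, listed here as T, is a T-box transcription factor of mesoderm and notochord. Together with SOX2 it marks the neuromesodermal progenitors of the vertebrate tail bud, cells that can form both spinal cord and paraxial mesoderm.

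The markers of spinal cord were present at 4 dpi. GFAP stood at 827, 313 and 421 TPM in the control libraries and SOX2 at 115, 35.7 and 66 TPM, the neuronal growth protein STMN2 at 2624, 1618 and 2056 TPM and the myelin protein MBP at 1884, 943 and 1058 TPM. Other tissues were present too: the muscle light chain MYLPF was at 5773, 4138 and 5762 TPM and the epidermal keratin KRT5 at 840.2, 568 and 497 TPM. Control library 1 stood apart from the others. Its correlation with the other controls across genes was 0.927 and 0.945, against 0.975 between those controls and 0.972 to 0.978 among the inhibitor libraries, and the summed share of neuronal markers was 0.991% of all TPM in it against 0.442% and 0.58% in control libraries 5 and 6. Control libraries 5 and 6 correlated with the inhibitor libraries at 0.95 to 0.969. The part of 4 dpi control library 1 in the results was not tested beyond the values given without it. The uninjured control library numbered 1 stood apart in the same way. Its neuronal share was 2.56%, against 0.841% and 0.485% in uninjured control libraries 5 and S2. The TPM of its median gene was 17.6, against 10.5 and 10.8. No inhibitor library carries the number 1, and whether that number marks a shared source was not tested. In bulk tissue, fewer cells of a type and less RNA per cell cannot be told apart.

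Most genes had a lower average level in the inhibitor group. The TPM of the median gene was 15.2, 9.11 and 10.4 in the control libraries and 6.56, 7.47 and 6.36 in the inhibitor libraries, with no overlap. The 100 most abundant genes held 26.2% to 31.3% of the TPM in the control libraries and 35.4% to 40.8% in the inhibitor libraries. Because TPM in each library add up to the same total, a larger share for abundant genes lowers the summed share left for the others. How much of the difference in the median gene comes from this was not tested. The median log2 fold change, on the log2(TPM + 0.5) scale, was -0.62, and 82.2% of genes had a negative value. Without control library 1 that median was -0.42. Each change was therefore also computed relative to the median gene of its own library, by subtracting the library's median log2 value. On that scale the median log2 fold change was 0.08 and 44.4% of genes were negative, so the scales differ by -0.70. For many genes named below only the log2 fold change on the deposited TPM is given. Relative to the median gene each of these values lies higher by the size of that difference, so a fall is smaller there or absent.

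On the deposited TPM, 31 genes rose and 246 fell with the inhibitor (limma, Benjamini-Hochberg adjusted p under 0.05 and log2 fold change past 1), which is 0.21% and 1.67% of the genes tested. Counts of list members called on the deposited TPM are to be read against these shares. Relative to the median gene, 13 rose and 0 fell, or 0.0881% and 0%, with 2071 genes (14.0%) higher and 509 (3.45%) lower at an unadjusted p under 0.05. On the deposited TPM 598 genes (4.05%) were higher and 4190 (28.4%) lower at that unadjusted threshold. The risers overlapped in part, with 10 genes called on both scales, 21 on the deposited TPM only and 3 relative to the median gene only. The scales differ by the same amount for every gene, so a fall past -1 had to stay negative relative to the median gene. Of the 246 falling genes, 38 stayed below -1 there. The 3 inhibitor libraries lay above all 3 controls for 6.62% of genes and below them for 46.8% on the deposited TPM, against 20.6% and 12.7% relative to the median gene. The distribution of changes shows this displacement across most genes. Where the groups of a named gene do not overlap, that is to be read against the shares above.

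**Figure D1:**
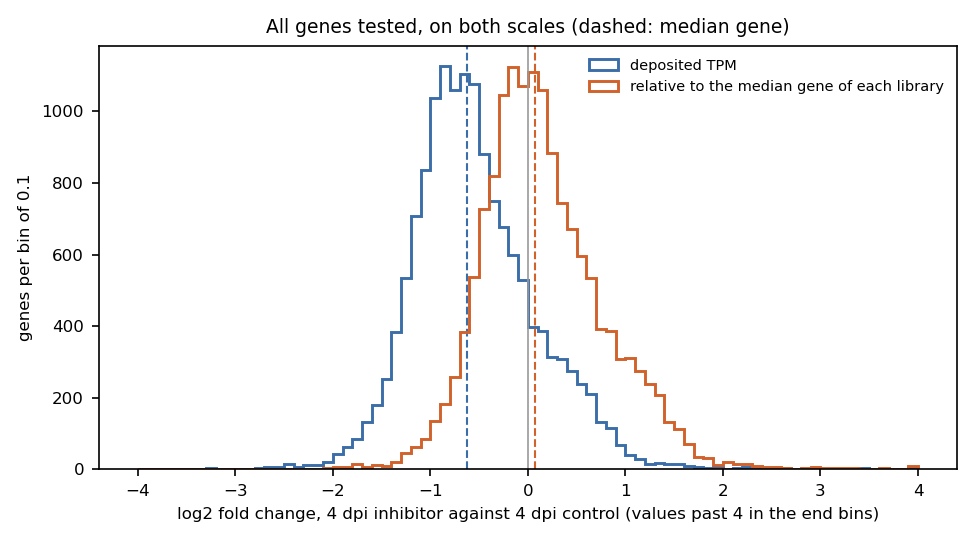
Number of genes (vertical axis) by log2 fold change between the 4 dpi inhibitor and 4 dpi control groups (horizontal axis, bins of 0.1), for all 14764 genes on the deposited TPM (blue) and relative to the median gene of each library (orange). The dashed medians lie at -0.62 and 0.08, and 82.2% and 44.4% of genes are negative on the respective scales.

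The calls sat close to their threshold. Adjusted p-values of the 277 genes called on the deposited TPM lay between 0.0436 and 0.05. Without control library 1 no gene was called on the deposited TPM by limma (smallest adjusted p = 0.0576), with 374 genes higher and 2127 lower at an unadjusted p under 0.05, and 3 were called relative to the median gene. Leaving out inhibitor library 5 or 7, or any of the 3 uninjured inhibitor libraries, which share in the estimate of the spread, also left 0 calls on the deposited TPM, and leaving out control library 6 left 1. The 277 calls kept their direction in each of the 23 alternatives in which they were tested, but COL10A1, PAX3 and KLHL9, the last named after its values were seen, did not pass the filter of 2 TPM and were followed in 22. Without control library 1, 23 of the 31 risers were still above a log2 fold change of 1 and 193 of the 246 fallers below -1. P-values measure the spread between these pooled libraries only.

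The largest rise was that of ZPLD1, a membrane protein with a zona pellucida-like domain that is known from the inner ear. ZPLD1 stood at 12.8, 70.2 and 9.69 TPM in the control libraries and at 723, 1179 and 1179 TPM in the inhibitor libraries. Even the lowest inhibitor library was far above the highest control. The log2 fold change was 5.56 ± 1.07 (SE; adjusted p = 0.0436, limma) on the deposited TPM and 6.26 ± 1.18 relative to the median gene, where the adjusted p of 0.0912 did not pass.

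APOD, a lipocalin that carries small lipids and is made by glia and fibroblasts, followed. Its level was 5.75, 17.5 and 3.6 TPM in control and 182, 211 and 320.5 TPM in inhibitor libraries, a log2 fold change of 4.91 on the deposited TPM (adjusted p = 0.044) and of 5.6 relative to the median gene (adjusted p = 0.0956). OTOS, which encodes otospiralin, a small secreted protein known from the mammalian inner ear, had 14.2, 19.1 and 44 TPM in control and 187, 267 and 427 TPM in inhibitor libraries. It rose on both scales, by 3.57 ± 0.46 and by 4.27 ± 0.6 (adjusted p = 0.0436 and 0.0269). For both genes each inhibitor library exceeded every control library by a wide margin. OTOS was called in 15 of the 23 alternatives on the deposited TPM, the most that any gene reached, as were C1QTNF9 and GNGT2. Without control library 1 OTOS was not called on either scale (limma adjusted p = 0.0865 on the deposited TPM and 0.156 relative to the median gene).

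A pair of C1q/TNF-related proteins, secreted factors with a C1q domain, also rose on both scales. C1QTNF9 was at 1.98, 0.798 and 0.278 TPM in control and 17.1, 18.4 and 8.41 TPM in inhibitor libraries, and C1QTNF2 at 2.48, 2.73 and 1.21 and 18.6, 30.3 and 32.5 TPM. On the median-gene scale C1QTNF9 rose by 4.1 ± 0.42 and had the smallest adjusted p of all genes (0.00616), and C1QTNF2 rose by 4.1 ± 0.65 (adjusted p = 0.048). On the deposited TPM both log2 fold changes were 3.40 (adjusted p = 0.0436). C1QTNF9 was still called relative to the median gene without control library 1 (4.33, adjusted p = 0.0125), whereas C1QTNF2 was not (4.01, adjusted p = 0.278). That library held the highest control value of C1QTNF9, so leaving it out could only widen its difference. Without inhibitor library 5 C1QTNF9 was not called on that scale (limma adjusted p = 0.0754). The other 8 members tested were not called on either scale, and the list's median was 0.18 relative to the median gene against 0.08 over all genes. Reads of such related genes may be shared between them.

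T, the brachyury gene that the study follows up, was low in every library. It stood at 0.274, 0.332 and 1.58 TPM in the control libraries, 0.729 ± 0.738 TPM on average (SD, n = 3), and at 4.86, 6.69 and 5.84 TPM in the inhibitor libraries, 5.8 ± 0.914 TPM on average (SD, n = 3). Every inhibitor library lay above every control library. T passed the filter of 0.5 TPM in 3 libraries only with inhibitor libraries counted, so its p is no separate support. The log2 fold change was 2.5 ± 0.54 on the deposited TPM (adjusted p = 0.0471) and 3.2 ± 0.61 relative to the median gene (adjusted p = 0.0923), so that the call held on the deposited scale only. The difference of the means was 5.07 TPM, and an exact two-sided permutation test of the 6 libraries gave p = 0.1, the smallest that 3 against 3 libraries allow. The ratio of the means was 7.95 and depended on the controls: it was 19.1 without control library 6 and 6.06 without control library 1, where the adjusted p of the log2 fold change was 0.189. Without injury T averaged 1.01 ± 1.2 TPM in control and 2.12 ± 0.423 TPM in inhibitor libraries, and the difference between the effects at 4 dpi and without injury, 1.44 on the log2 scale, did not pass (adjusted p = 0.658).

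No other factor of neuromesodermal and paraxial mesoderm cells was called on either scale. Of 22 genes on that list 12 were tested: T was called higher on the deposited TPM, 0 were called lower and 11 were not called. The list's median was -0.94 on the deposited TPM and -0.24 relative to the median gene, below the -0.62 and 0.08 of all genes, and the latter value was -0.03 without inhibitor library 7 and -0.16 without control library 1. UNCX, a homeobox gene of somites, stood at 4.31, 2.17 and 2.83 TPM in control and 1.72, 1.54 and 1.01 TPM in inhibitor libraries. TCF15, a helix-loop-helix factor of somites, was at 8.77, 3.7 and 6.47 and 1.69, 1.44 and 1.97 TPM. PAX3, a paired-box factor of dorsal neural tube and muscle progenitors, was at 4.96, 1.52 and 1.19 TPM in the controls and listed at 0 in all 3 inhibitor libraries, and fell on the deposited TPM (adjusted p = 0.047). PAX3 was also listed at 0 in all 6 uninjured libraries. It therefore passed the filter only through the 3 controls at 4 dpi. A fall was the only change PAX3 could show, and its p is no separate support. The myogenic list that PAX3 belongs to had a median of -0.27 relative to the median gene. PAX3 was the only call among its 16 members, against 1.67% of all genes called lower on the deposited TPM. MEOX1, a somite homeobox gene on the same list, was at 92.6, 51.7 and 60.4 TPM in control and 66.5, 58.5 and 60.8 TPM in inhibitor libraries, with overlapping groups.

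The next risers were genes of very low level in control cord. MRPL27, a protein of the large mitochondrial ribosomal subunit, was at 0.503, 2.37 and 0.229 TPM in control and 24.5, 7.41 and 21.5 TPM in inhibitor libraries. GNGT2, a G-protein gamma subunit known from cone photoreceptors, was listed at 2.08, 0 and 0 TPM in control and 7.13, 5.15 and 11.4 TPM in inhibitor libraries. Both were called on each scale, MRPL27 with log2 fold changes of 3.67 and 4.37. GNGT2 was also listed at 0 in all 3 uninjured controls. It passed the filter of 3 libraries only with inhibitor libraries counted, so its p is no separate support. SSC5D, a soluble scavenger receptor, stood at 4.7, 0.468 and 0.961 and 16.1, 9.96 and 9.47 TPM and was likewise called on both scales. C3orf49 was at 0, 0.616 and 0.429 and 5.03, 5.03 and 5.81 TPM and was called on the deposited TPM only. The groups did not overlap for any of them. GNGT2 and SSC5D were still called relative to the median gene without control library 1 (adjusted p = 0.018 and 0.0125). That library held the highest control value of both, so leaving it out could only widen the difference. Without inhibitor library 7 neither was called on that scale (limma adjusted p = 0.23 for each).

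**Figure D2:**
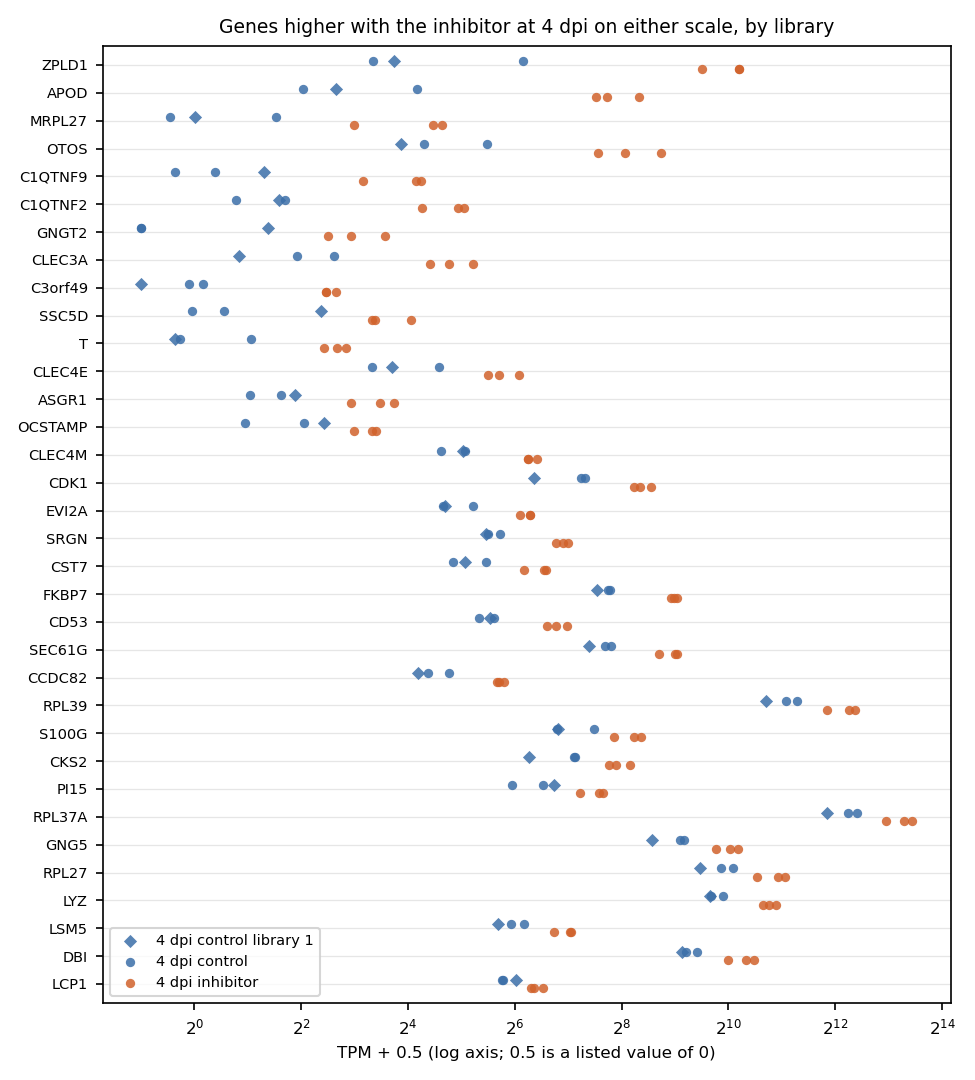
TPM + 0.5 (horizontal axis, log scale) of the 34 genes called higher on either scale, ordered by log2 fold change on the deposited TPM. Each point is 1 library, blue for 4 dpi control (diamond for control library 1) and orange for 4 dpi inhibitor. In all 34 genes the 3 inhibitor libraries lie to the right of the 3 controls, from ZPLD1 at the top to LCP1, called relative to the median gene only, at the bottom. The genes were chosen by their calls on these same values, so this separation is no separate support.

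LYZ, which encodes the antibacterial enzyme lysozyme, stood at 807, 954 and 817 TPM in control and 1609.6, 1744 and 1906 TPM in inhibitor libraries, and rose on the deposited TPM by 1.03 ± 0.16 (adjusted p = 0.0436). CLEC4E, the macrophage receptor for microbial glycolipids and dying cells, was at 12.4, 23.4 and 9.57 and 51.5, 44.9 and 67 TPM, a rise of 1.89 (adjusted p = 0.0436). CD53, a tetraspanin of leukocytes, was at 46.1, 48 and 39.8 and 108, 97.1 and 125 TPM and rose on both scales, by 1.29 on the deposited TPM and 1.99 relative to the median gene (adjusted p = 0.0477 and 0.0269). In all of these the inhibitor libraries lay above the controls, though the CLEC4E controls varied among themselves.

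The lectin receptor CLEC4M had 32.2, 32.9 and 24 TPM in control and 75.2, 75.9 and 85.3 TPM in inhibitor libraries, and rose by 1.41 ± 0.23 and 2.1 ± 0.27 on the respective scales (adjusted p = 0.0436 and 0.0269). ASGR1, a lectin receptor known from mammalian liver, had 3.2, 1.56 and 2.56 and 10.6, 12.9 and 7.16 TPM and was called on both scales, and EVI2A, at 25.3, 36.8 and 24.7 and 77.8, 68 and 77.1 TPM, was too. These lectin receptors belong to a large family, so the human symbol given to an axolotl transcript may stand for a relative. OCSTAMP, a membrane protein needed for the fusion of osteoclasts in mice, was called relative to the median gene only, at 4.85, 3.66 and 1.43 TPM in control and 9.55, 7.4 and 10.1 TPM in inhibitor libraries. LCP1, an actin-bundling protein of leukocytes, was as well, with 64.6, 53.8 and 54.1 and 81.2, 92.1 and 78.9 TPM, 0.55 on the deposited scale and 1.24 relative to the median gene (adjusted p = 0.048).

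The macrophage and microglia list did not rise as a whole on the deposited TPM. Of 38 markers 1 was called higher, LYZ, and 0 lower. The list's median was -0.26, against -0.62 over all genes. Without control library 1 these medians were 0.05 and -0.42. The summed share of the markers in the TPM was 0.549%, 0.549% and 0.471% in control and 0.451%, 0.603% and 0.49% in inhibitor libraries, ranges that overlap. Relative to the median gene the median was 0.43 (0.30 to 0.54 with any one 4 dpi library left out), LCP1 was called, and 19 of 38 markers, 50%, lay above all controls, against 20.6% of all genes. TYROBP, the adaptor of activating receptors on myeloid cells, was at 36.1, 43.1 and 39.8 TPM in control and 81.1, 86.5 and 82.7 TPM in inhibitor libraries and narrowly missed the call on the deposited TPM (1.07, adjusted p = 0.0517). C1QC, a chain of the complement protein C1q made by macrophages, was at 257, 205 and 178 and 241, 336 and 273 TPM with overlapping groups. MPEG1, the macrophage pore-forming protein, had the opposite sign, 861, 359 and 490.0 TPM in control and 72.3, 217 and 100.3 TPM in inhibitor libraries (-2.19, adjusted p = 0.0606).

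The granulocyte markers had the highest median of the marker lists, 0.32 on the deposited TPM and 1.02 relative to the median gene (0.89 to 1.08 with any one 4 dpi library left out). None of the 16 was called on either scale, with 3 higher and 1 lower on the deposited TPM and 6 higher and 0 lower relative to the median gene at an unadjusted p under 0.05. Over all genes these shares were 4.05%, 28.4%, 14.0% and 3.45%. PRG2, the major basic protein of eosinophil granules, stood at 27.3, 32.6 and 19.1 TPM in control and 134, 156 and 186 TPM in inhibitor libraries, 2.59 on the log2 scale (adjusted p = 0.0657). Its relative PRG3 was at 0, 0.683 and 3.03 and 5.58, 6.86 and 7.24 TPM, and the chemokine receptor CXCR1, carried by neutrophils, at 13.2, 24.1 and 22 and 32.2, 43.8 and 40.3 TPM. In each of these 3 genes the groups did not overlap, and 8 of 16 markers, 50%, were above all controls relative to the median gene, against 20.6% of all genes. The summed share of the list was 0.0736% to 0.0745% in control and 0.0732% to 0.0881% in inhibitor libraries. Lymphocyte markers had a median of -0.03 and erythroid markers of 0.15 relative to the median gene (-0.28 to 0.10 and -0.12 to 0.47 with any one 4 dpi library left out), with 0 of 10 and 0 of 18 called.

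Cytosolic ribosomal proteins had the highest median of the lists on both scales. Of 78 genes for cytosolic ribosomal proteins, 3 rose on the deposited TPM, RPL27, RPL37A and RPL39, and 1 fell, against 0.21% and 1.67% of all genes. Relative to the median gene 71 of 78, 91%, lay above all controls, against 20.6% of all genes. The median log2 fold change was 0.74 on the deposited TPM and 1.43 relative to the median gene (1.04 without control library 1). RPL39, a small protein of the exit tunnel of the large subunit, stood at 1675, 2507 and 2156 TPM in control and 5279, 3687 and 4914 TPM in inhibitor libraries (1.13, adjusted p = 0.0436). Together the 78 genes took up 6.96%, 10.4% and 9.6% of the TPM in the control libraries and 15.7%, 12.9% and 14.8% in the inhibitor libraries.

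The nuclear genes of the respiratory chain went the same way in the median, at 0.39 and 1.08 on the respective scales (0.22 and 0.71 without control library 1), with 57 of 74, 77%, above all controls relative to the median gene against 20.6% of all genes. Their share was 4.43% to 6.37% in control and 6.87% to 8.22% in inhibitor libraries. Within this list of 74 genes 3 nevertheless fell on the deposited TPM, against 1.67% of all genes. They were SDHA, the catalytic subunit of complex II, from 183 ± 74.8 to 64.7 ± 10 TPM (SD, n = 3), NDUFS1 of complex I from 109 ± 46.3 to 41.8 ± 3.19 TPM, and ATP5B of the ATP synthase from 189 ± 37.2 to 91.6 ± 11.5 TPM. UQCRQ, a small subunit of complex III, was at 1441, 1987 and 1914 TPM in control and 3786, 2678 and 3562 TPM in inhibitor libraries, with an adjusted p of 0.0471 but a log2 fold change of 0.91, just short of the threshold of 1. COX7B of complex IV behaved alike, with 247, 334 and 300.2 and 619, 456 and 567 TPM, 0.9 on the log2 scale and an adjusted p of 0.0461. Mitochondrial ribosomal proteins had a median of 0.13 and 0.83 (-0.03 and 0.47 without control library 1), with MRPL27 called higher and MRPL2 and MRPS18A lower on the deposited TPM.

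Genes encoded by the mitochondrial genome were uneven. MT-CO1, the catalytic subunit of cytochrome oxidase and one of the most abundant transcripts, stood at 23506, 35349 and 31648 TPM in control and 57682, 44816 and 53942 TPM in inhibitor libraries, without overlap (0.8, adjusted p = 0.0674). The other members were far lower, and the list's median of -1.24 on the deposited TPM became 0.76 relative to the median gene without control library 1, from -0.55 with it. MT-ND5, for example, was at 12.3, 0 and 0.672 and 0, 0 and 0.357 TPM, high in control library 1 alone.

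A pair of cell division genes rose. CDK1, the kinase that drives entry into mitosis, stood at 82, 151 and 158 TPM in control and 374, 324 and 301 TPM in inhibitor libraries (1.4 ± 0.28, adjusted p = 0.0436), and its binding partner CKS2 at 76.1, 139 and 137 and 286, 215 and 237 TPM (1.11, adjusted p = 0.048). For both genes control library 1 was the lowest. After subtraction of the library medians they had 2.1 and 1.8 and did not pass (adjusted p = 0.0956 and 0.104). Of 57 cell cycle and replication genes these 2 were the only calls on the deposited TPM and 0 were called relative to the median gene, where 25, 43.9%, lay above all controls and 1 below, against 20.6% and 12.7% of all genes. On the deposited TPM 7 of the 57 lay above all controls and 10 below, against 6.62% and 46.8% of all genes. CKS1B was at 14.5, 24.4 and 25.4 and 47.5, 46.1 and 45.8 TPM. In contrast, the checkpoint kinase CHEK1 was at 14.2, 5.35 and 9.33 TPM in control and 2.98, 3.73 and 3.52 TPM in inhibitor libraries, with neither gene called. The list's median was -0.34 on the deposited TPM and 0.36 relative to the median gene.

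CDKN1B, which encodes the cell cycle inhibitor p27 and was on the list of miR-200 family targets described in mammals, fell on the deposited TPM, from 39, 58.3 and 52 TPM in control to 18.8, 21.3 and 15.1 TPM in inhibitor libraries (-1.41 ± 0.33, adjusted p = 0.0497). Its change relative to the median gene was -0.71 and the groups overlapped. Of 46 listed targets tested it was the only call on the deposited TPM, and 0 were called relative to the median gene. The list's median, -0.58 and 0.12, was close to the -0.62 and 0.08 of all genes, and 11 of 46, 23.9%, lay above all controls relative to the median gene against 20.6% of all genes. ZEB2, a repressor of epithelial genes and a known miR-200 target in mammals, was at 15.8, 7.82 and 8.97 TPM in control and 7.71, 6.36 and 6.03 TPM in inhibitor libraries. JUN, a subunit of the AP-1 transcription factor, was at 121, 65.7 and 83.3 and 40.9, 78.3 and 59.3 TPM, with overlapping groups and a change of -0.6 and 0.1 on the respective scales. FOS, another AP-1 subunit, varied within the inhibitor group, at 2.11, 25.2 and 25.1 TPM against 8.34, 1.7 and 3.87 TPM in control. Factors of the epithelial-mesenchymal transition had a median of 0.19 relative to the median gene and 0 of 18 called, and SNAI2 among them stood at 28, 13.9 and 20.7 and 12.9, 15.5 and 13.8 TPM.

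Among the genes that fell, several encode secreted proteins. RPS27L, however, had the largest fitted change: this relative of the ribosomal protein RPS27 was at 46.4, 169.6 and 25.6 TPM in control and listed at 0 in all 3 inhibitor libraries (adjusted p = 0.0494). It was also listed at 0 in all 3 uninjured inhibitor libraries, against 5.48, 2.28 and 1105 TPM in the uninjured controls. RPS27L therefore passed the filter only through controls. A fall was the only change it could show, and its p is no separate support. Over the alternatives its log2 fold change on the deposited TPM ran from -9.2 to -5.9. RPS27 was looked up after the zeros of RPS27L were seen. It was at 1418, 2376 and 2133 TPM in control and 3555, 2873 and 3431 TPM in inhibitor libraries. Reads of these closely similar genes may be shared between them. APOA1, the main protein of high-density lipoprotein, was at 25.7, 14.7 and 20.3 TPM in control and 0, 3.86 and 2.14 TPM in inhibitor libraries, a fall of -3.5 ± 0.73 on the deposited TPM (adjusted p = 0.0465). APOH, a phospholipid-binding plasma protein, fell from 36.2 ± 3.46 to 13.3 ± 5.28 TPM (SD, n = 3), whereas APOE was at 722, 1564 and 943 and 569, 998 and 524 TPM with overlapping groups. The 22 lipid carriers tested thus held 1 riser, APOD, and 2 fallers, against 0.21% and 1.67% of all genes on the deposited TPM.

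SCG5, a chaperone of neuroendocrine secretory granules, had 214, 73.4 and 127 TPM in control and 26.1, 35.5 and 23.1 TPM in inhibitor libraries (-2.16 on the deposited TPM, adjusted p = 0.05). C5, the complement component from which an attractant of leukocytes is cut, had 11.5, 8.73 and 7.75 and 2.08, 1.28 and 1.8 TPM (-2.15, adjusted p = 0.0436) and was the only call among 26 complement genes, whose medians were -0.98 and -0.29 on the respective scales (the latter -0.03 without inhibitor library 5). In both genes every inhibitor library lay below every control, as for 46.8% of all genes on the deposited TPM. ANGPTL7, a secreted angiopoietin-like protein, was at 19.2, 6.18 and 10.9 and 1.87, 3.35 and 1.84 TPM. MMP2, a protease that digests collagen and gelatin, fell from 290.5, 299 and 159 TPM to 83.5, 91.1 and 88.2 TPM (-1.45, adjusted p = 0.0436). COL10A1, the collagen of hypertrophic cartilage, was at 1.51, 1.42 and 4.45 TPM in control and listed at 0 in all 3 inhibitor libraries (adjusted p = 0.0436). At 4 dpi COL10A1 reached the filter of 0.5 TPM in the controls only, so its p is no separate support. The size of its fall varied with the processing, from -4.48 to -1.68 on the deposited TPM over the alternatives. CTSK, a lysosomal protease that digests collagen, fell from 86.5 ± 43.1 to 33.4 ± 5.23 TPM (SD, n = 3).

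OASL, an interferon-induced antiviral protein, was at 63.9, 21.3 and 46.8 TPM in control and 3.64, 5.35 and 2.38 TPM in inhibitor libraries, with -3.3 ± 0.59 on the deposited TPM (adjusted p = 0.0436) and -2.6 relative to the median gene (adjusted p = 0.0956). Of the 27 genes on the interferon list 0 were called on either scale, with 13 lower and 0 higher at an unadjusted p under 0.05 on the deposited TPM, against 28.4% and 4.05% of all genes. IRF7, a regulator of interferon genes, was at 53.3, 20.4 and 35.1 TPM in control and 10.5, 11.3 and 9.76 TPM in inhibitor libraries. Its groups did not overlap, and 46.8% of all genes lay below all controls in this way on the deposited TPM. The list's median was -0.99 on the deposited TPM and -0.30 relative to the median gene (-0.39 to -0.13 with any one 4 dpi library left out).

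**Figure D3:**
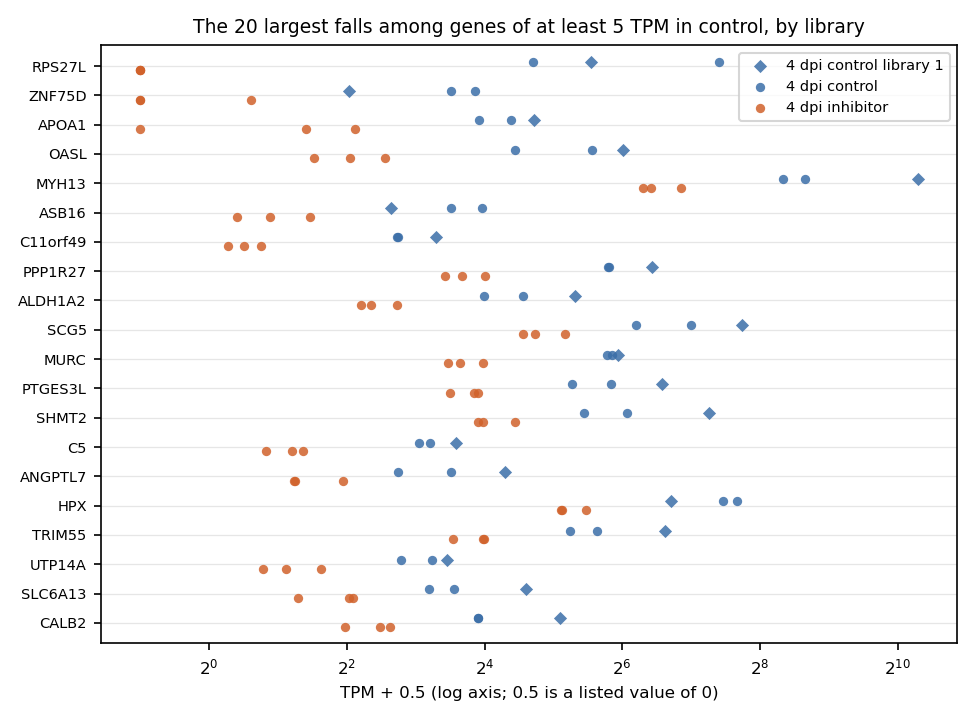
TPM + 0.5 (horizontal axis, log scale) of the 20 largest falls among the genes called lower on the deposited TPM with at least 5 TPM in the control group. Each point is 1 library, blue for 4 dpi control (diamond for control library 1) and orange for 4 dpi inhibitor. RPS27L is listed at 0 in all 3 inhibitor libraries. In all 20 genes the inhibitor libraries lie to the left of the controls, of which library 1 is often the highest. The genes were chosen by their calls on these same values, so this separation is no separate support.

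ALDH1A2, which makes retinoic acid from retinaldehyde, fell. It was at 39.3, 15.4 and 23.2 TPM in control and 6.13, 4.13 and 4.59 TPM in inhibitor libraries, a change of -2.19 ± 0.46 on the deposited TPM (adjusted p = 0.0465) and of -1.5 relative to the median gene (adjusted p = 0.105). RDH10, which provides its substrate, was at 112, 71.3 and 98.3 and 39.7, 43.4 and 33.5 TPM. It was not called (adjusted p = 0.0566). Its inhibitor libraries lay below all controls, as did those of 46.8% of all genes on the deposited TPM. Over the 22 retinoic acid genes, 1 was called, and the median was -0.70 and -0.01, with 5, 22.7%, below all controls relative to the median gene against 12.7% of all genes.

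The signalling lists otherwise held no calls. Of 17 Wnt ligands 0 were called by limma on either scale, with 4 lower and 0 higher at an unadjusted p under 0.05 on the deposited TPM (28.4% and 4.05% of all genes) and 0 relative to the median gene. The list's medians were -0.52 and 0.17, the latter between -0.04 and 0.24 with any one 4 dpi library left out. WNT5A, a ligand of the planar polarity branch, was at 20.5, 16.2 and 15.6 TPM in control and 16.3, 14.1 and 16.7 TPM in inhibitor libraries. The groups overlapped. WNT3A, a ligand of the beta-catenin branch, was at 5.11, 1.84 and 1.33 and 0.901, 2.73 and 1.3 TPM, and WNT8A at 1.26, 1.19 and 1.87 and 0.811, 0.521 and 0.248 TPM. CTNNB1, which encodes beta-catenin, was at 188, 107 and 132 TPM in control and 62.5, 82.7 and 64.5 TPM in inhibitor libraries, with -0.99 on the deposited TPM and -0.29 relative to the median gene. Its nuclear partner LEF1 was at 6.39, 3.52 and 5.22 and 2.72, 2.69 and 2.88 TPM, with -0.03 relative to the median gene (adjusted p = 0.978).

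Of 18 FGF ligands 0 were called on either scale, and the medians were -0.59 and 0.10, with 2 lower and 0 higher on the deposited TPM at an unadjusted p under 0.05, against 28.4% and 4.05% of all genes. FGF8, a ligand of the embryonic tail bud and limb, was at 3.72, 1.82 and 0.879 TPM in control and 1.66, 1.1 and 2.33 TPM in inhibitor libraries, and FGF10 at 6.99, 7.59 and 6.58 and 4.94, 5.63 and 9.18 TPM. Both overlapped between groups. Medians relative to the median gene were -0.01 for 26 Notch genes, 0.26 for 15 Hedgehog genes, 0.00 for 38 genes of the TGF-beta and BMP pathways, 0.16 for 36 HOX genes and -0.13 for 56 axon guidance genes, with 0 called in each on either scale. With any one 4 dpi library left out, these medians lay between -0.26 and 0.38. HEY1, a target of Notch, was at 20.3, 15 and 21.7 and 9.38, 8.2 and 8.65 TPM, and the Hedgehog target GLI1 at 6.85, 2.43 and 3.07 and 1.74, 2.24 and 1.22 TPM.

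The neural lists lay below the median gene. For 62 neuronal and synaptic genes the median was -1.04 on the deposited TPM and -0.34 relative to the median gene, with 0 called on either scale, 20 lower and 0 higher on the deposited TPM at an unadjusted p under 0.05 (28.4% and 4.05% of all genes), and 25, 40.3%, below all controls relative to the median gene against 12.7% of all genes. Without control library 1 the median was -0.08, the same sign as before but near that of all genes. The summed share was 0.991%, 0.442% and 0.58% in control and 0.241%, 0.261% and 0.23% in inhibitor libraries, below the lowest control in each case. STMN2 was at 772, 962 and 788 TPM in the inhibitor libraries. NEFM, a neurofilament protein, was at 1067, 262 and 382 TPM in control and 122, 117 and 118 TPM in inhibitor libraries (-1.99, adjusted p = 0.0693), and RBFOX3, the nuclear protein NeuN of mature neurons, at 9.85, 3.63 and 3.15 and 1.7, 1.6 and 1.52 TPM (-1.35, adjusted p = 0.145). For NEFM and RBFOX3 the inhibitor libraries agreed closely with each other while control library 1 was well above its fellow controls.

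For 25 markers of ependymoglia and neural stem cells the median was -0.93 on the deposited TPM and -0.23 relative to the median gene, which became 0.01 without control library 1. None was called on either scale, with 9 lower and 0 higher on the deposited TPM and 4 lower and 1 higher relative to the median gene at an unadjusted p under 0.05. Over all genes these shares were 28.4%, 4.05%, 3.45% and 14.0%. GFAP was at 827, 313 and 421 TPM in control and 97.2, 134 and 85.7 TPM in inhibitor libraries, with -2.2 ± 0.53 and an adjusted p that rounds to 0.05 but did not pass. SOX2 was at 115, 35.7 and 66 and 26.3, 20.4 and 21.1 TPM, with -1.51 ± 0.51 on the deposited TPM (adjusted p = 0.0809) and -0.81 relative to the median gene (adjusted p = 0.274), where the groups overlapped. SLC1A3, a glutamate transporter of glia, was at 278, 62.9 and 109 and 36.7, 30.6 and 33.9 TPM. VIM, the filament protein vimentin, overlapped between the groups on the deposited TPM: it was at 693, 447 and 560.0 TPM in control and 383, 536 and 427 TPM in inhibitor libraries, 0.37 relative to the median gene. SOX2 and T transcripts were therefore both present in each inhibitor library. Whether the same cells held both cannot be told from bulk tissue.

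Central myelin genes had medians of -0.97 and -0.28 and neuronal differentiation factors of -0.98 and -0.28, with 0 of 18 and 0 of 48 called. Without control library 1 the medians relative to the median gene were -0.12 and -0.11. NEUROG1, a proneural factor, was at 9.52, 1.63 and 2.56 TPM in control and listed at 0, 1.43 and 0 TPM in inhibitor libraries. OLIG2, a factor of oligodendrocyte and motor neuron progenitors, was at 30.8, 7.11 and 10.5 and 1.63, 3.1 and 6.19 TPM. Motile cilia, which line the central canal and move its fluid, had medians of -0.96 and -0.27 over 51 genes, 16 of which, 31.4%, were below all controls relative to the median gene against 12.7% of all genes. Without control library 1 the latter median was -0.14. TEKT2, a filament protein of the axoneme, fell from 70.6, 24.4 and 48.7 TPM to 16.4, 13.1 and 9.23 TPM on the deposited scale (-1.76, adjusted p = 0.0487), and RSPH1, a radial spoke protein, from 8.33, 4.56 and 4.63 to 1.15, 1.66 and 1.47 TPM. CFAP20 was the third call of that list of 51 genes, against 1.67% of all genes called lower on the deposited TPM.

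Skeletal muscle genes had a median of -0.997 and -0.301, with 0 of 38 called on either scale and 17 lower and 0 higher at an unadjusted p under 0.05 on the deposited TPM, against 28.4% and 4.05% of all genes. Their summed share was 3.72%, 2.26% and 2.91% in control and 1.42%, 1.63% and 1.59% in inhibitor libraries. Several fallers outside that list are nevertheless known from muscle. MYH13, a fast myosin heavy chain, fell from 1258, 321 and 403 TPM to 78.2, 115 and 85.3 TPM (-2.57, adjusted p = 0.0477), and MURC, a caveolar protein of muscle, from 61, 57.1 and 54.3 to 10.6, 15.2 and 12 TPM (-2.16 ± 0.44, adjusted p = 0.0436). MURC was steady within each group, unlike MYH13, for which control library 1 was well above the other controls. Myosin heavy chains are closely similar and may share reads; MYH1 and MYH2 were at 209, 301 and 198 and 37.6, 52 and 39.1 TPM in the inhibitor libraries against 1624, 538 and 764 and 442, 132 and 148 TPM in control and were not called.

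Of the connective tissue lists, cartilage and notochord markers had a median of 0.49 relative to the median gene (0.37 to 0.50 with any one 4 dpi library left out), fibroblast and meningeal markers of 0.22 (0.08 without inhibitor library 7 and 0.49 without control library 1), collagens of 0.07 and scar and glial matrix genes of -0.22. Endothelial markers had -0.42 (-0.02 without control library 1). DCN, the matrix proteoglycan decorin, was at 261, 306 and 265 TPM in control and 552, 565 and 634 TPM in inhibitor libraries (1.07, adjusted p = 0.196), and its relative LUM, lumican, at 1319, 1162 and 1292 and 1935, 1968 and 1758 TPM. UCMA, a secreted protein of cartilage, was at 233, 171 and 176 and 374, 537 and 561 TPM (1.33, adjusted p = 0.0592). None of these 3 was called. Their inhibitor libraries lay above all controls, as for 6.62% of all genes on the deposited TPM. The fibroblast and meningeal list had a median of -0.48 on that scale, with 3 of 28 members above all controls and 7 below. Among 21 cartilage and notochord markers 3 lay above and 4 below, with 0 called higher and 1 lower. Over all genes 46.8% lay below, and 0.21% and 1.67% were called higher and lower. CLEC3A, a cartilage lectin that was on none of the lists, rose from 1.28, 3.28 and 5.6 TPM to 20.6, 26.7 and 36.5 TPM (3.01 ± 0.54, adjusted p = 0.0436). COL2A1, the main collagen of cartilage and notochord, was at 289.8, 89 and 130.3 and 114, 143 and 170.5 TPM with overlapping groups.

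The proteasome, which degrades tagged proteins, held 7 genes that fell among its 34, against 1.67% of all genes: PSMB5, PSMC3, PSMC6, PSMD1, PSMD2, PSMD3 and ADRM1. PSMD1, a scaffold of the regulatory particle, was at 415, 231 and 286 TPM in control and 89.7, 135 and 94.9 TPM in inhibitor libraries (-1.52 ± 0.26, adjusted p = 0.0436). The list as a whole was mixed: 15 members, 44.1%, lay above all controls relative to the median gene and 6 below, against 20.6% and 12.7% of all genes, and its median of 0.35 on that scale was -0.07 without control library 1. EIF2B4 and EIF3L fell among 40 translation initiation genes, HSP90AB1, the constitutive chaperone, among 32 heat shock genes (1114, 427 and 612 TPM against 241, 242 and 202 TPM), and PRPF6 among 53 spliceosome genes, of which LSM5 rose (50.7, 71.2 and 60.1 TPM against 132, 106 and 131 TPM). SHMT2, a mitochondrial enzyme of serine and folate metabolism, was at 153, 42.9 and 66.7 TPM in control and 14.5, 21.3 and 15.2 TPM in inhibitor libraries (-2.15, adjusted p = 0.0499). None of these genes was called lower relative to the median gene.

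**Figure D4:**
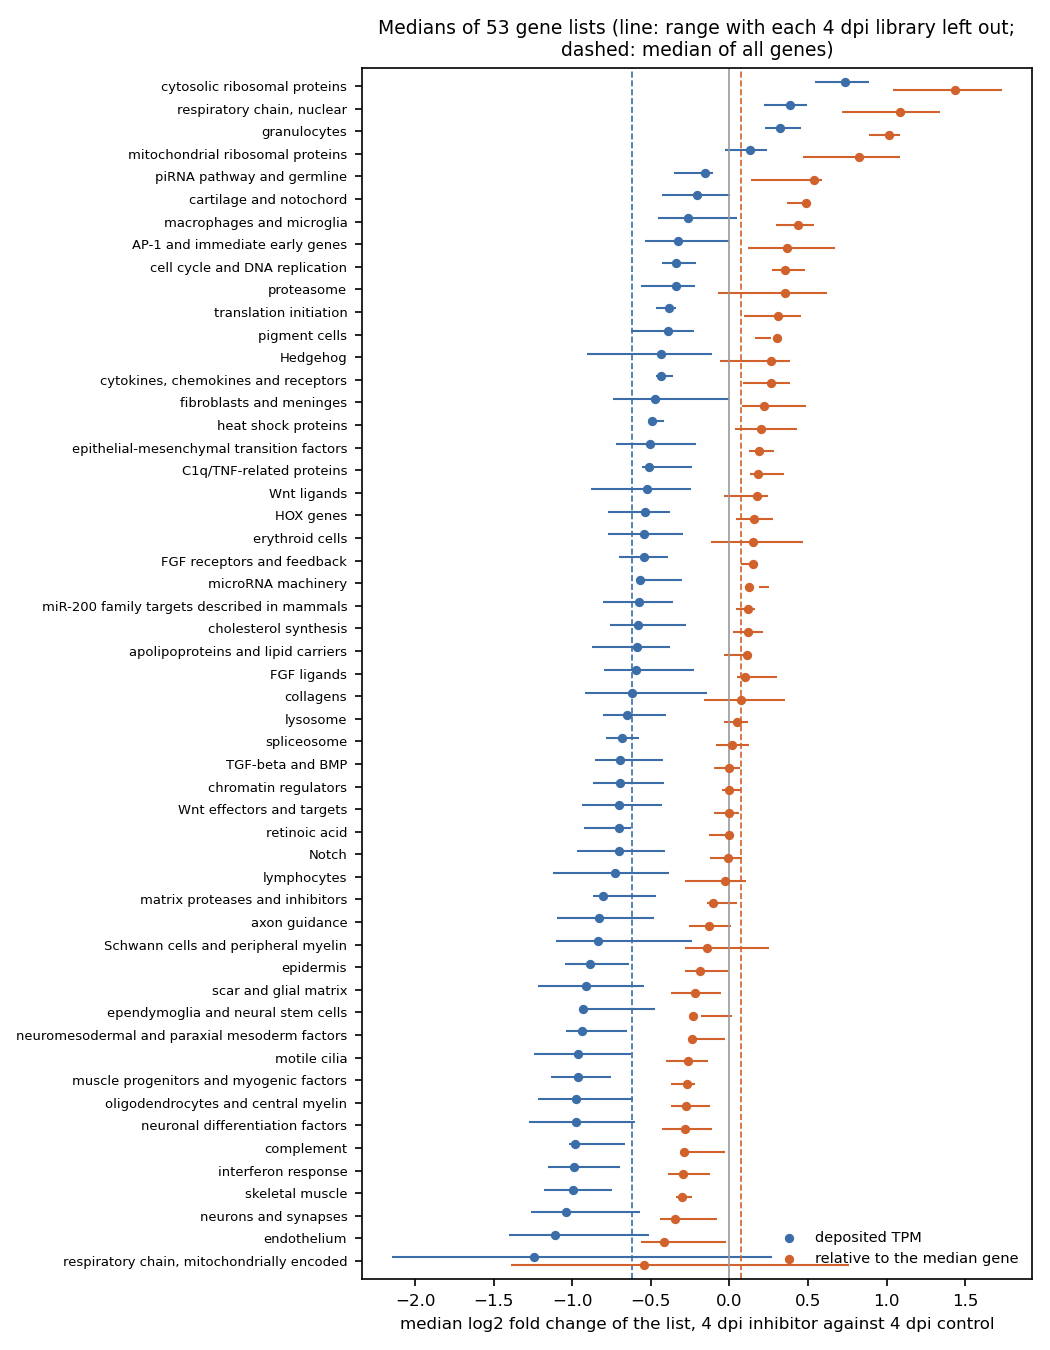
Median log2 fold change (horizontal axis) of 53 gene lists between 4 dpi inhibitor and 4 dpi control, on the deposited TPM (blue) and relative to the median gene (orange). Lines span the values with each 4 dpi library left out in turn, and dashed lines mark the medians of all genes, -0.62 and 0.08. Cytosolic ribosomal proteins are highest, at 0.74 and 1.43, and neuronal, endothelial and muscle lists lie near the lower end.

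Other genes followed in the study were also read out. EME1, a subunit of a DNA junction endonuclease, was at 0, 0 and 0.205 TPM in control and 5.94, 1.32 and 1.99 TPM in inhibitor libraries and was not called (2.46, adjusted p = 0.0608). TDRD9, a helicase of the piRNA pathway, was at 0, 0 and 0.311 TPM in control and 17.1, 0 and 0.124 TPM in inhibitor libraries, so that inhibitor library 5 alone was high. ZNF324B was at 0.216, 0 and 0.426 and 1.95, 4.58 and 0.509 TPM. BRSK1, a kinase of neuronal polarity, was at 1.75, 9.25 and 1.15 and 0.1, 0 and 0 TPM, with control library 5 the highest. ACAP1, ARHGAP8, SLC6A6 and SLC6A14 were each below 7 TPM in every library at 4 dpi and were not called.

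The effect of the inhibitor at 4 dpi was then set against its effect without injury, as an interaction in the same fit. Of the 31 risers 27 were also positive without injury, against 20% of all genes, and of the 246 fallers 240 were also negative, against 79.8%. Relative to the median gene 27 were positive and 196 negative without injury, against 56.2% and 43.8% of all genes. Only 4 genes, 0.0271%, passed the interaction test at an adjusted p under 0.05 on the deposited TPM, and 5, 0.0339%, relative to the median gene, with 989 and 1163 genes at an unadjusted p under 0.05. The signs of C1QTNF9 and C1QTNF2 were opposite. Without injury C1QTNF9 was at 47.8, 24.3 and 19.9 TPM in the controls and 0, 1.17 and 0.2 TPM in the inhibitor libraries, and C1QTNF2 at 41, 28.5 and 105 and 7.4, 8.45 and 0.906 TPM. The difference between the effects was 8.52 ± 0.78 for C1QTNF9 (adjusted p = 0.0012) and 6.84 ± 0.92 for C1QTNF2 (adjusted p = 0.0195) on the deposited TPM. Both passed relative to the median gene as well (adjusted p = 0.00015 and 0.0429). For both genes the inhibitor libraries lay below the controls without injury and above them at 4 dpi, with no overlap in either setting.

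ZPLD1 and APOD showed a similar order of group means, though their interaction did not pass. The uninjured controls had 46.8, 349 and 547 TPM of ZPLD1 and the uninjured inhibitor libraries 22.6, 256 and 15.3 TPM, an interaction of 7.76 (adjusted p = 0.253), and for APOD the values were 8.09, 64.2 and 163 and 5.89, 58.5 and 6.66 TPM (6.59, adjusted p = 0.373). These uninjured values varied widely within each group.

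LYZ and PLBD1 moved in the opposite sense, with a smaller effect at 4 dpi than without injury. The uninjured controls held 77.9, 87.5 and 89.5 TPM of LYZ and the uninjured inhibitor libraries 715, 614 and 718 TPM, and the effect at 4 dpi minus that without injury was -1.97 ± 0.23 on the log2 scale (adjusted p = 0.00857). Relative to the median gene that difference was -2.42 and did not pass (adjusted p = 0.231). PLBD1, a phospholipase of granulocytes and macrophages, had 5.32, 4.1 and 2.99 TPM among the uninjured controls, 63.4, 45 and 41.8 TPM among the uninjured inhibitor libraries, 102, 79.6 and 129 TPM among the 4 dpi controls and 129, 148 and 148 TPM among the 4 dpi inhibitor libraries. Its interaction of -2.98 ± 0.37 passed on both scales (adjusted p = 0.0116 and 0.0081). For both genes the 4 dpi controls were already far above the uninjured controls. The number of interactions depended on single libraries: 1 gene passed on the deposited TPM without 4 dpi control library 6 and 10 without uninjured control library 1.

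**Figure D5:**
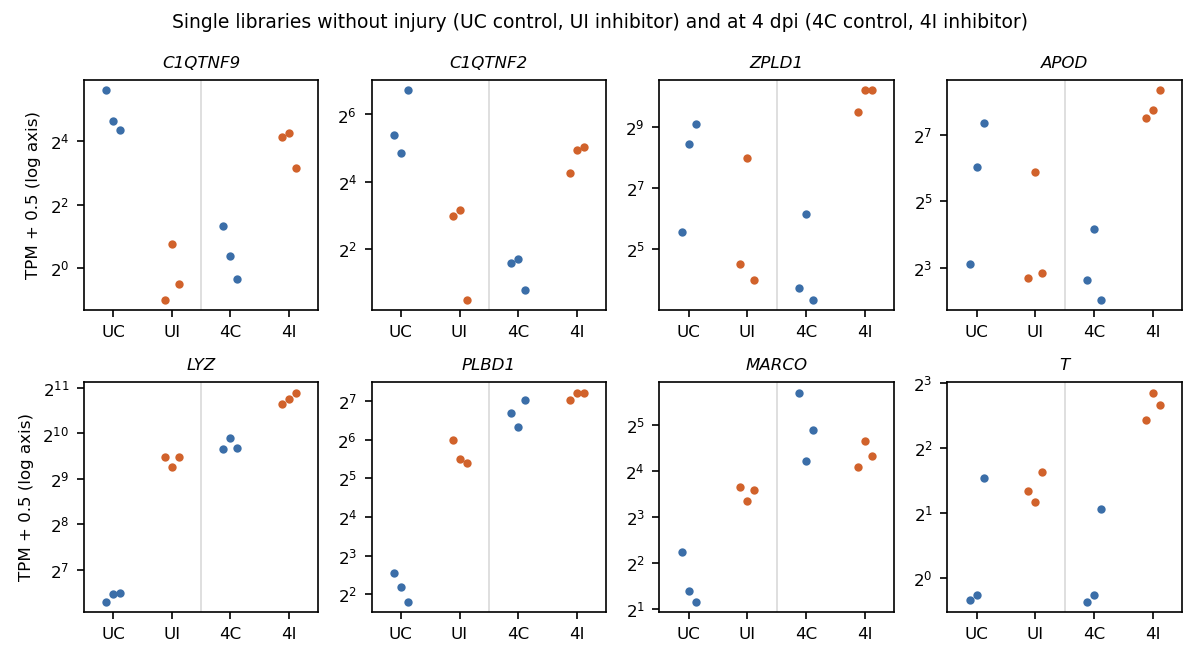
TPM + 0.5 (vertical axis, log scale) of 8 genes in each library of the 4 groups: UC, uninjured control; UI, uninjured inhibitor; 4C, 4 dpi control; 4I, 4 dpi inhibitor. Each point is 1 library, blue for control and orange for inhibitor. For C1QTNF9 and C1QTNF2 the inhibitor libraries lie below control without injury and above it at 4 dpi, whereas for LYZ they lie above control in both settings.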

How the data were processed

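RNA of pooled cord was extracted with Trizol and sequenced on an Illumina instrument. The authors deposited TPM per gene, estimated by their pipeline and scaled to the same total in each library; their processing notes name RSEM 1.1.6, Bowtie 0.12.1 and DESeq2 1.16.1 but not what each was used for, and the reference is not given in the sources used here. Genes carry human symbols, 25 of which had been altered and were read from the identifier. TPM keep no read depth, so counting error is unknown.

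Genes with at least 0.5 TPM in 3 of 12 libraries (14764) were tested in limma 3.58.1 (R 4.3.3) on log2(TPM + 0.5) with all 4 groups, a variance trend in the moderation and p-values adjusted after Benjamini and Hochberg, and again after subtracting each library's median. Changes were called at adjusted p under 0.05 and log2 fold change past 1, interactions at adjusted p alone. Replicate correlations (-0.056 for number 5, 0.107 for number 6) did not show that shared numbers pair the libraries. Tested on simulated data without library shifts, the rule recovered 13.4%, 67.2% and 86.4% of genes changed by 1, 2 and 3 log2 units at 4 dpi among 14764 genes. The changed genes were drawn only from those with a mean log2(TPM + 0.5) above 2, so recovery of lower genes is not known. The rule made 3 calls among unchanged genes. With the library shifts measured here simulated as well, it made 39 on the deposited scale and 10 after subtracting the medians. The simulated spread already held part of those shifts, and its errors were independent between genes. These counts therefore do not give the error rate of the rule on these data.

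The 54 gene lists, the rules and the tests were chosen with earlier results of these data known. Named genes were the 15 largest calls in each direction and scale with at least 5 TPM, up to 5 members of each list by smallest p (at least 1 TPM), the 5 most abundant of each marker list, and genes the study follows. Alternatives changed the pseudocount, filter, samples, scaling and moderation. The values of some list members are not reported here. No sequences are printed.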

Additional observations from a re-analysis of the deposited data

Results flagged for a closer look

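The effect of the inhibitor at 4 dpi differed from its effect without injury, by the limma interaction test, in 6 genes. On the deposited TPM the differences were 8.52 for C1QTNF9, 6.84 for C1QTNF2, -1.97 for LYZ and -2.98 for PLBD1 on the log2 scale. On the median-gene scale they were 8.07 for C1QTNF9, 6.39 for C1QTNF2, -3.43 for PLBD1, -2.96 for MARCO and -3.85 for PLA2G2E. MARCO and PLA2G2E lie outside the naming rule and are named because they passed this test. MARCO, a scavenger receptor of macrophages, had 4.21, 2.12 and 1.72 TPM among the uninjured controls, 12.1, 9.67 and 11.4 TPM among the uninjured inhibitor libraries, 51.4, 18.1 and 28.9 TPM among the 4 dpi controls and 16.6, 24.6 and 19.5 TPM among the 4 dpi inhibitor libraries (adjusted p = 0.0162 relative to the median gene and 0.373 on the deposited TPM). PLA2G2E, a secreted phospholipase, was listed at 4.64, 5.57 and 4.23 TPM in the uninjured inhibitor libraries and at 0 in the other 9 (adjusted p = 0.0429 and 0.113). PLA2G2E passed the filter only through the uninjured inhibitor libraries, so a negative difference was the only one it could show. Its change at 4 dpi relative to the median gene, 0.7, came with a listed value of 0 in all 6 libraries and reflects the subtraction of the library medians alone. The groups of 3 libraries were too small for a search for single outlying libraries.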

How the results depend on the processing

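The counts of called genes depended on the processing, while the direction of all 277 genes called on the deposited TPM and of all 13 called relative to the median gene was kept in every alternative in which they were tested (23 and 22, or 22 for 3 of the former, which a filter of 2 TPM removed); none of these genes was called in all of them, the most being 15 and 20. The kept direction is no separate support, because the genes were chosen in these same libraries. Alternatives that leave out an uninjured library, change the moderation or fit only the 6 libraries at 4 dpi also cannot alter the fold changes. The cause of the changes in count was not tested. Against 31 risers and 246 fallers on the deposited TPM and 13 and 0 relative to the median gene, fitting only the 6 libraries at 4 dpi gave 68, 1133, 34 and 5. Without the variance trend, 0 and 0 were called on the deposited TPM by limma, with 502 higher and 4143 lower at an unadjusted p under 0.05. Quantile normalization gave 7 and 0, and median-of-ratios scaling 11 and 0, with 975 and 764 lower at an unadjusted p under 0.05. No fold threshold gave 61 risers, a filter of 2 TPM gave 412 fallers, and a pseudocount of 0.1 gave 6 risers relative to the median gene. Leaving out both control libraries numbered 1, chosen after seeing the data, gave 7, 6, 24 and 3. Leaving out 1 library at a time gave 0 (control library 1, inhibitor libraries 5 and 7 at 4 dpi, each uninjured inhibitor library) to 95 (4 dpi control library 5) risers and 0 to 1655 (uninjured control library 1) fallers on the deposited TPM; where both were 0, limma still gave 374 to 578 higher and 2127 to 4072 lower at an unadjusted p under 0.05. Relative to the median gene it gave 0 (4 dpi inhibitor library 5, with 1501 higher at an unadjusted p under 0.05) to 90 risers and 0 to 4 fallers (uninjured control library 1), and 1 (4 dpi control library 6) to 10 interactions (uninjured control library 1).

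Control and inhibitor libraries at 4 dpi share the numbers 5 and 6. The replicate correlations, taken at 4 dpi only, did not show that these numbers pair them. With 3 libraries per group they cannot exclude pairing. With the number as a replicate block, 412 genes fell on the deposited TPM, and 297 rose and 39 fell relative to the median gene.

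Read depth is unknown, so low values such as those of T, GNGT2 and MRPL27 carry a counting error that could not be given.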
